A study of Mus musculus with 24 samples.

Results

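The phagocyte NADPH oxidase is the enzyme with which neutrophils and macrophages make superoxide, and 5 of its genes, Cybb, Cyba, Ncf1, Ncf4 and Rac2, were followed through 24 RNA libraries of mouse leukaemia cells. The 5 genes were taken by symbol from a table of read counts for 24046 genes, and all 5 were among the 14099 genes with enough counts to test. The leukaemias carried the MLL-AF9 fusion and were recovered from marrow when the recipients of transplanted cells had become moribund. There were 8 groups of 3 libraries, arranged as 4 sets of floxed and control libraries. The VavCre Arid1b set had Arid1b fl/fl VavCre+ cells beside Arid1b +/+ VavCre+ controls, and the VavCre Arid2 set had floxed Arid2 alleles with VavCre+ beside VavCre+ controls. In the other 2 sets the floxed cells and their controls carried MxCre+, and the recipients were given pIpC, an interferon-inducing RNA, in 3 injections of 12.5 µg per g that began on day 21 after the transplant. Arid1b and Arid2 are ARID-domain subunits of the SWI/SNF family of chromatin remodellers. VavCre acts in blood cells from early development, MxCre only after induction, and the controls of every set carried Cre as well. For both MxCre sets the titles and the cell type descriptions name different genes (A2 in the title with Arid1b in the description, A1b with Arid2), so which gene was deleted is not stated for them, and they are called by title, as the MxCre set titled A2 and the MxCre set titled A1b. The titles mark the VavCre Arid1b set and both MxCre sets as secondary, and those of the VavCre Arid2 set carry no such mark. If the VavCre Arid2 leukaemias were not secondary, that cannot be told apart from the other differences between sets.

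Cybb and Cyba encode the 2 chains of flavocytochrome b558, the membrane core that carries electrons from NADPH across the phagosome membrane to oxygen. Ncf1 and Ncf4 encode p47phox and p40phox, which wait in the cytosol and join the core when the cell is stimulated, p47phox as the organiser and p40phox as an adaptor that binds a phosphoinositide of the phagosome. Rac2 is the small GTPase that completes the active complex in blood cells, and loss of the oxidase causes chronic granulomatous disease.

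The sequences around the transcription starts are shown because the genes of 1 enzyme are compared by how alike their RNA levels ran. RefSeq promoter sequences (build GRCm38.p6, 250 bases before to 50 after the start, written 5′ to 3′ on the gene's strand) were matched for 3 of the 5 members. The window of Cybb is chrX:9469275-9469574 on the minus strand, that of Cyba is chr8:122432891-122433190 on the minus strand, and that of Ncf1 is chr5:134229576-134229875 on the minus strand. Capitals mark the motifs searched, each looked for on both strands: the CCAAT box, the letters GAGGAA that occur in sites of ETS factors, and the TATAA box.
Cybb: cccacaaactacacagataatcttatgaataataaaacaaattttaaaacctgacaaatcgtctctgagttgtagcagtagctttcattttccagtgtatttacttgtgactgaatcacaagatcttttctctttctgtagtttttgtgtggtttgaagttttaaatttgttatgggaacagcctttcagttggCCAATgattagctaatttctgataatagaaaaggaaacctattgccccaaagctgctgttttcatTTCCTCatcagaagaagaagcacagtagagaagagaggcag
Cyba: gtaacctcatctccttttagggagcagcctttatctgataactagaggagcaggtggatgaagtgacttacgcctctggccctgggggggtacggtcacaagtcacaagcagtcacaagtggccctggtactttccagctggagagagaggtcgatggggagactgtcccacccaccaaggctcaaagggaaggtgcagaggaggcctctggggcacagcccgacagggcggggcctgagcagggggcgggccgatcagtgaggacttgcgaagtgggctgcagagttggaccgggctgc
Ncf1: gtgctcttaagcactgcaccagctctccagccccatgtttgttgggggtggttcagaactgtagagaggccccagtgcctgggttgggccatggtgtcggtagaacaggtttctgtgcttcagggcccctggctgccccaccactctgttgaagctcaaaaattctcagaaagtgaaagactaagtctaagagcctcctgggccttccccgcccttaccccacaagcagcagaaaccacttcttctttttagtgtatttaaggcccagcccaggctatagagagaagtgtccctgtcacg
The Cybb region had CCAAT with its first base 56 bases before the start, and TTCCTC, which is GAGGAA on the other strand, from base 10 after it. Neither motif, nor TATAA, was found in the Cyba or Ncf1 window. Of 32851 promoters of the same length, 37.4% held CCAAT, 28.3% GAGGAA and 24.9% TATAA, so these matches are a description and mark no site. The Cybb window was AT-rich, at 35.3% GC with 1 CpG, against a median of 52.7% GC over all promoters. The Cyba window had 60.7% GC and 9 CpG, and the Ncf1 window 54.0% GC and 3 CpG. This RefSeq start of Cybb lies inside the span annotated for the gene, chrX:9435252-9487766.

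The 5 genes lie on 4 chromosomes (RefSeq, GRCm38). Cybb is on the X chromosome, Cyba at chr8:122424771-122432940 and Ncf1 at chr5:134220053-134229628, all on the minus strand. Ncf4 (chr15:78244164-78262582, plus strand) and Rac2 (chr15:78559169-78572783, minus strand) are both on chromosome 15, with 296586 bases between them, a stretch in which other genes lie. The span of Cyba overlaps Gm20388 and that of Ncf1 overlaps Gtf2ird2, both on the opposite strand. The strand setting of the counting is not given in the sources used here, so reads of those pairs may not be told apart, and the values of Cyba and Ncf1 carry that limit.

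The libraries held 12069153 to 38315410 counts. Of 7 markers of myeloid MLL-AF9 leukaemia, 6 were at 5.12 CPM or more in every library, with Hoxa9 at 20.1 to 444 CPM (read counts made comparable by scaled library size), Meis1 at 32.8 to 157, Ptprc (CD45) at 394 to 789.7, Itgam (CD11b) at 262 to 994, Kit at 18.0 to 168 and Mef2c at 5.12 to 631. The seventh, Hoxa10, ran from 0.391 to 153 CPM. Arid1b was at 55.7 to 442 CPM and Arid2 at 121 to 547, and neither passed the test in any set (edgeR adjusted p above 0.05). The deleted exons are not stated, so these levels do not measure the deletion. Of the 24 libraries, 10 were Y-positive (the Y-linked gene Kdm5d above 10 CPM). All 3 floxed libraries of the VavCre Arid1b set were Y-negative and its 3 controls Y-positive, while the MxCre set titled A2 had this turned around. Sex and genotype cannot be told apart within those sets. Y status was mixed only within the VavCre Arid2 floxed group and both groups of the MxCre set titled A1b. A term for Y-positive libraries therefore takes its size from those groups. It does not separate sex from genotype in the VavCre Arid1b set or the MxCre set titled A2. Erythroid markers summed to at most 1130 CPM, reached by floxed 3 of the MxCre A2-titled set. In floxed 2 of the A1b-titled set, longer genes lay lower (Spearman correlation across genes -0.40, against -0.20 to 0.23 in the other libraries). It is not stated whether the libraries of a group trace to different primary leukaemias. The p-values therefore take account only of the spread among these samples. In bulk RNA, fewer cells of a type and less RNA per cell cannot be told apart.

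All 5 oxidase genes were expressed in every library, but not at like levels. Per kilobase of exon, the median over 24 libraries was 371 CPM per kb for Cyba, 270.3 for Rac2, 193 for Ncf1, 120 for Ncf4 and 71.7 for Cybb. The chains of the membrane core were therefore far from equal in RNA: Cybb per kb was 0.0218 to 0.589 times Cyba per kb (median 0.229). Rac2 per kb exceeded Rac1, its broadly expressed relative, by 2.29 to 5.49 times (median 3.65), and Rac3 was near 0, at a median of 1.39 CPM per kb. Nox1, the catalytic subunit of another oxidase, had a median of 2.78 CPM per kb.

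Of the 5, Cybb was the gene that varied. Its level ran from 49.7 to 1385 CPM over the 24 libraries, a range of 27.9-fold. The range was 3.04-fold for Cyba (237 to 721 CPM), 3.01-fold for Ncf1 (303 to 910.1), 2.83-fold for Ncf4 (137 to 388) and 1.81-fold for Rac2 (661 to 1193). Within groups, the SD of log2 CPM was 1.10 for Cybb, which exceeded 98.7% of the 2518 genes with a mean above 100 CPM (median 0.25). The same SD was 0.34 for Ncf1, 0.27 for Cyba, 0.21 for Ncf4 and 0.14 for Rac2, the last exceeding only 8.46% of those genes. The catalytic subunit and the GTPase of 1 complex thus lay near opposite ends of the spread.

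**Figure D1:**
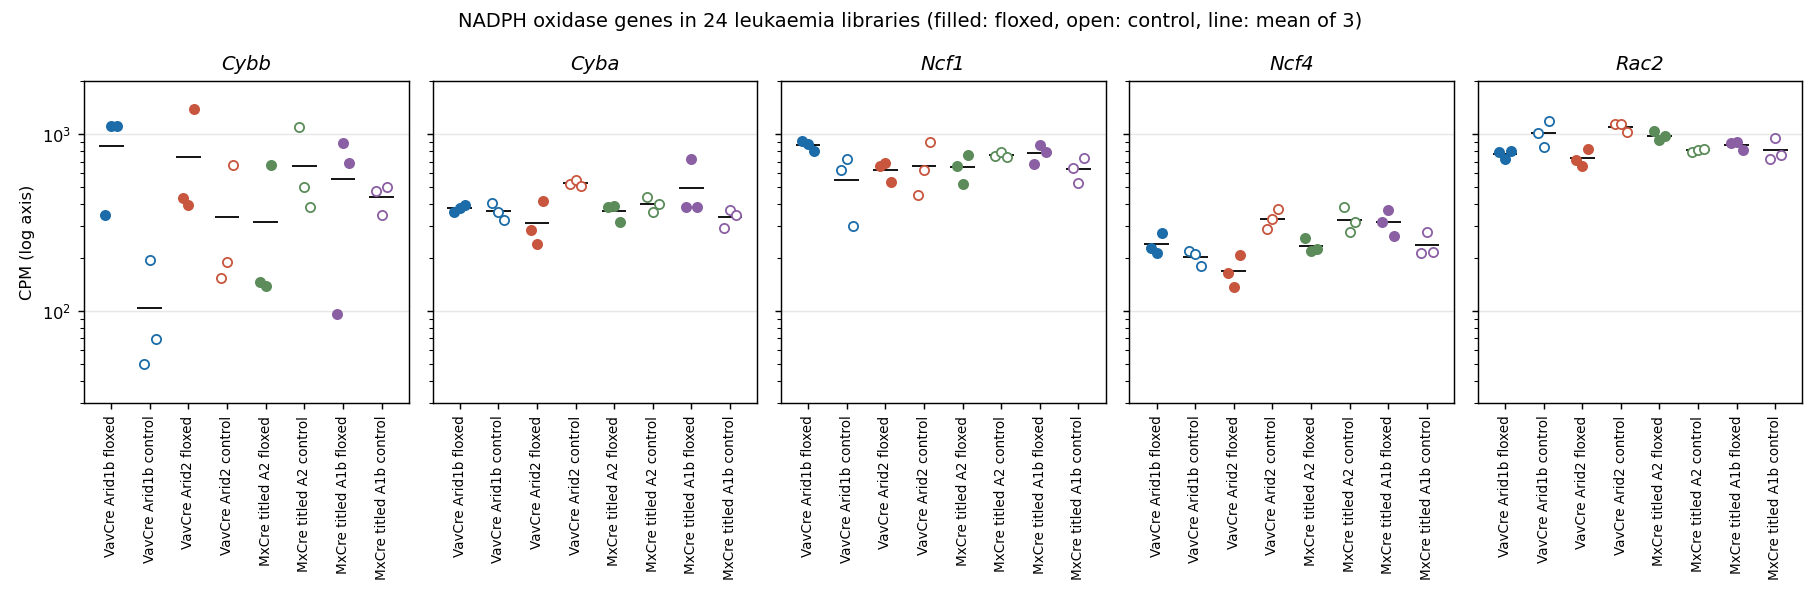
Level of each oxidase gene in every library, in CPM on a log axis, with floxed libraries (filled) left of the controls (open) of each set and a line at the group mean. Cybb runs from 49.7 to 1385 CPM, while Rac2 stays between 661 and 1193.

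Floxed and control libraries were compared within each set by edgeR's quasi-likelihood test, with 0.05 as the threshold for the Benjamini-Hochberg adjusted p over all 14099 genes. In VavCre Arid1b leukaemias 1 of the 5 oxidase genes was called, Cybb, which rose 8.26-fold, where 6.57% of all genes were called. In VavCre Arid2 leukaemias 2 of the 5 were called, Ncf4 and Rac2, which both fell, where 1.31% of all genes were called. None was called in the MxCre set titled A2 (0 of 5 by edgeR, 0 by DESeq2, 1 at an unadjusted p under 0.05; 0.0284% of all genes called) or in that titled A1b (0 of 5 by edgeR, 0 by DESeq2, 2 at an unadjusted p under 0.05; 0.00709% called). The median log2 fold change of the 5 was 0.24, against -0.06 for all genes, in the VavCre Arid1b set and -0.58, against 0.00, in the VavCre Arid2 set. For the MxCre sets the median was -0.23 (titled A2, against 0.02) and 0.34 (titled A1b, against 0.01).

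**Figure D2:**
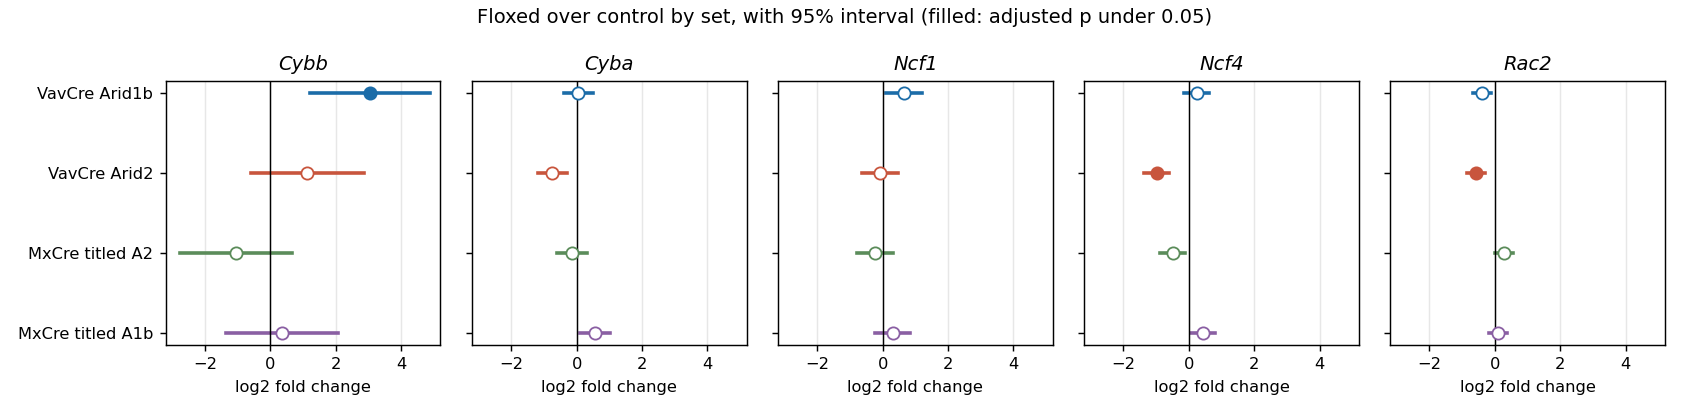
Log2 fold change, floxed over control, of each oxidase gene in each of the 4 sets, with 95% intervals from edgeR and filled points where the adjusted p was under 0.05. Cybb at 3.05 in the VavCre Arid1b set, and Ncf4 at -0.98 and Rac2 at -0.58 in the VavCre Arid2 set, are the values that passed.

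Cybb encodes gp91phox, the catalytic chain that holds the flavin and the hemes. VavCre Arid1b libraries had 349, 1117 and 1110.3 CPM in floxed 1, 3 and 4, against 49.7, 193 and 69.1 CPM in controls 1 to 3. The lowest floxed library lay above the highest control. The means were 859 ± 442 CPM in floxed and 104 ± 77.8 in control libraries (SD, n = 3 each), which gave a log2 fold change of 3.05 (95% interval 1.20 to 4.89, edgeR adjusted p 0.0451). The call was close to the threshold. It was lost without control 1 (log2 fold change 2.71, edgeR adjusted p 0.162), control 3 (2.85, 0.147), floxed 3 (2.81, 0.144) or floxed 4 (2.82, 0.111). When Y-positive status was a term of the model, the log2 fold change was 1.80 (edgeR adjusted p 0.463). That term was fitted from groups of other sets, so this value does not separate sex from genotype here. The call was also lost with no filter on low counts (3.05, edgeR adjusted p 0.0799) and without the 3 libraries that stood apart, which were control 3 of this set, floxed 3 of the MxCre A2-titled set and floxed 2 of the A1b-titled set (2.85, 0.0894).

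The other sets did not show a called difference for Cybb. VavCre Arid2 libraries had 437, 396 and 1385 CPM when floxed, against 154, 190.0 and 669 CPM in controls, which overlapped (log2 fold change 1.13, 95% interval -0.60 to 2.86, edgeR adjusted p 0.474). The MxCre set titled A2 leaned the other way, with 146, 138 and 669.6 CPM in floxed libraries against 1092, 499.9 and 388 CPM in controls (-1.05, interval -2.78 to 0.67, edgeR adjusted p 0.703). In each of these sets floxed 3 was the highest floxed library by more than 3-fold. Libraries of the MxCre set titled A1b had 95.5, 896 and 690.3 CPM in floxed libraries against 476, 351 and 499 CPM in controls, so that floxed libraries held both the lowest and the highest values (0.34, edgeR adjusted p 0.859), and without floxed 2 the log2 fold change was -0.18. The change in the MxCre set titled A2 differed from that in the VavCre Arid1b set by -4.10 on the log2 scale (95% interval -6.61 to -1.59, edgeR adjusted p 0.0438, with 7.35% of all genes called in that test). That difference is also the one in which Y-positive libraries lie on opposite sides, and once they had a term of their own it was -1.61 (edgeR adjusted p 0.775). Neither of these sets has a group of mixed Y status, so the term rests on other sets and cannot tell sex from genotype here.

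Markers of monocytes and macrophages moved with Cybb. The 17 markers measured, which do not include Cybb, summed to 5396 to 9275 CPM in VavCre Arid1b floxed libraries and 1357 to 2389 CPM in their controls. No marker of the 17 was at 0 in any group. In that set 4 of the 17 were called higher and none lower, with a median log2 fold change of 2.18 against -0.06 for all genes. Dendritic cell markers summed to 1234 to 3079 CPM in the same floxed libraries and 76.0 to 278 CPM in the controls, and 10 of 12 were called higher. These counts stand beside 6.57% of all genes called in the set. Other lists also moved there: 2 of 19 granulocyte markers were called lower and 0 higher, with a median log2 fold change of -0.67. Of 9 eosinophil, basophil and mast cell markers tested, 2 were called lower and 0 higher (median -0.89). Of 6 megakaryocyte markers tested, 1 was called higher and 0 lower (median -0.44). Of 10 erythroid markers tested, 9 had a log2 fold change above 0 and 0 were called (median 4.04), at sums of at most 37.5 CPM in floxed libraries. T and NK markers summed to 56.4 to 97.8 CPM in floxed and 13.7 to 22.8 CPM in control libraries, though of 9 tested 1 was called higher and 1 lower. Only 1 of the 9 had a log2 fold change above 0, and their median was -1.745, so the higher sum does not stand for most of that list. Over all 24 libraries, log2 CPM of Cybb and of the monocyte sum had a Pearson r of 0.93 and a Spearman rho of 0.92 (permutation adjusted p 0.0001 for each, the smallest that 100000 permutations can give over 10 relations). The r was 0.94 without the 2 libraries farthest from the median, 0.94 for deviations from set means and 0.90 for deviations from group means (permutation adjusted p 0.0002). With the summed granulocyte markers Cybb had an r of -0.06 (permutation adjusted p 0.762). These 10 relations, of 5 genes with 2 marker sums, were added after the levels had been seen, and the part of the marked cells in the Cybb difference was not tested.

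**Figure D3:**
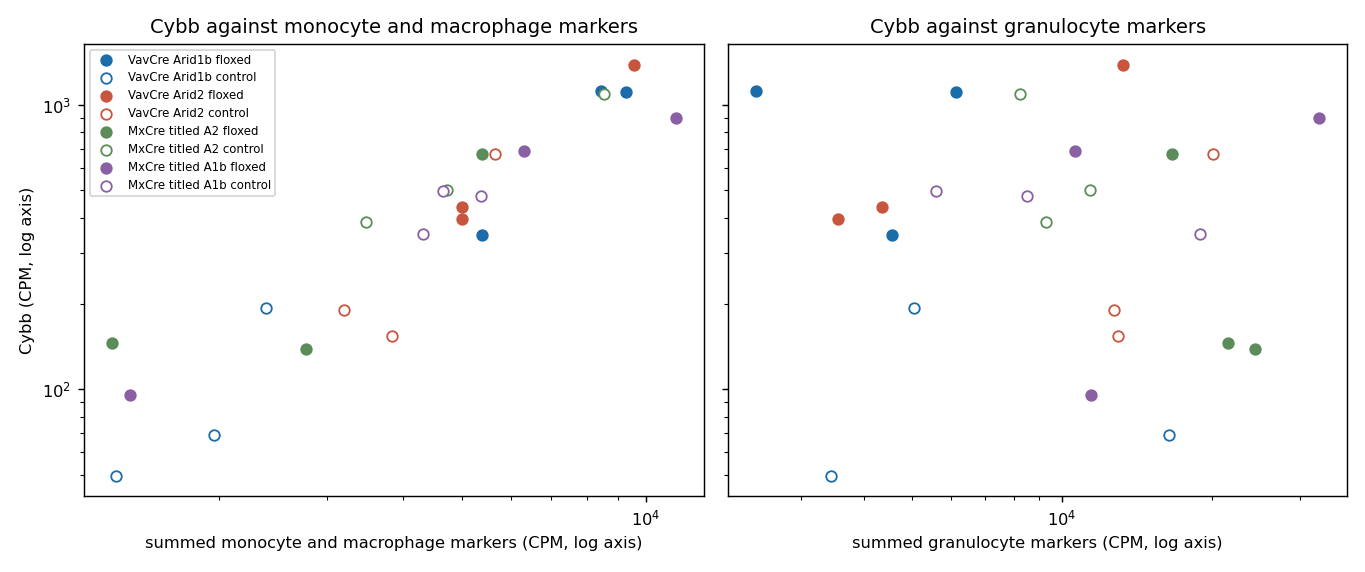
Cybb in CPM against the summed CPM of 17 monocyte and macrophage markers and of 19 granulocyte markers, on log axes, with 1 point per library (floxed filled, control open, coloured by set). Cybb follows the monocyte sum (r = 0.93) and not the granulocyte sum (r = -0.06).

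Cyba encodes p22phox, the smaller chain that holds gp91phox in the membrane and gives p47phox its docking site. It was nearly level in the VavCre Arid1b set, at 360.4, 384 and 398 CPM in floxed 1, 3 and 4 and 407, 364 and 328 CPM in controls (log2 fold change 0.06, edgeR adjusted p 0.904). In the VavCre Arid2 set it was at 287, 237 and 421 CPM in floxed libraries against 522, 548 and 507 CPM in controls. All 3 floxed libraries lay below all 3 controls, but the difference missed the threshold (-0.74, 95% interval -1.19 to -0.28, edgeR adjusted p 0.0878). Apart from single-library omissions, 3 of 8 alternative analyses called it lower. Without floxed 3 it was -1.0 and passed (edgeR adjusted p 0.0342). Floxed 3 of that set was the library with the highest Cyba, Ncf4, Rac2 and Cybb of the 3. It also had the highest summed markers of the 3, both of monocytes and macrophages (9551 CPM, against 5002 and 4994) and of granulocytes (13229 CPM, against 4349 and 3561).

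Cyba in the MxCre set titled A2 was at 386, 391 and 317 CPM in floxed libraries and 443, 360.2 and 400.3 CPM in controls, which overlapped (log2 fold change -0.14, edgeR adjusted p 0.879). In the set titled A1b it was at 388, 721 and 384 CPM in floxed libraries, against 294, 374 and 349 CPM in controls. Every floxed library lay above every control (0.55, 95% interval 0.10 to 1.01, edgeR adjusted p 0.2). The value of 721 CPM, the highest of all 24, came from floxed 2, in which longer genes lay lower, and Cyba is the shortest of the 5 genes, with 1.04 kb of exon. Without floxed 2 the log2 fold change was 0.19. The Cyba change of the MxCre set titled A1b minus that of the VavCre Arid2 set was 1.29 on the log2 scale (95% interval 0.65 to 1.94, edgeR adjusted p 0.0428, with 1.5% of all genes called in that test). It did not pass when Y-positive status was in the model (1.01, edgeR adjusted p 0.148) or with no filter on low counts (1.26, 0.0634). Of the 6 pairs of sets, 3 gave no call for any of the 5 genes by edgeR: VavCre Arid2 minus VavCre Arid1b (0.0142% of all genes called; 2 of the 5 at an unadjusted p under 0.05), MxCre titled A1b minus VavCre Arid1b (0.745%; 2 of 5) and MxCre titled A1b minus MxCre titled A2 (0.192%; 2 of 5). DESeq2 called 1, 0 and 1 of the 5 in these pairs.

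Ncf1 encodes p47phox, the organiser that is phosphorylated on activation. Its values were 910.1, 883 and 807 CPM in floxed 1, 3 and 4 of the VavCre Arid1b set, against 626, 727 and 303 CPM in controls. The floxed libraries were alike and all above the controls, while control 3 was the lowest of the 24 libraries. The log2 fold change was 0.65 (95% interval 0.11 to 1.20) but the test was not passed (edgeR adjusted p 0.134). In the VavCre Arid2 set the gene was at 658, 685 and 539 CPM in floxed libraries, inside the control range of 454, 631 and 903 CPM (-0.08, edgeR adjusted p 0.898), and without control 3 or floxed 3 the sign turned (0.21 and 0.02). The MxCre sets also overlapped. That titled A2 had 658, 525 and 763 CPM when floxed against 755, 787 and 739 CPM in controls (-0.23, edgeR adjusted p 0.816). That titled A1b had 680.4, 871 and 794 CPM when floxed against 641, 527 and 729 CPM in controls (0.31, edgeR adjusted p 0.56).

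Ncf4 encodes p40phox, whose PX domain binds phosphatidylinositol 3-phosphate on the phagosome. In the VavCre Arid2 set it was at 164, 137 and 206 CPM in floxed libraries, against 292, 332 and 376 CPM in controls. The highest floxed library lay well below the lowest control. Ncf4 fell by 0.98 on the log2 scale (SE 0.18, 95% interval -1.35 to -0.60, edgeR adjusted p 0.015), with means of 169 ± 34.8 CPM in floxed and 333 ± 42.1 CPM in control libraries (SD, n = 3 each). It did not pass without control 2 (-0.98, edgeR adjusted p 0.0617), floxed 1 (-0.96, 0.0801) or floxed 2 (-0.84, 0.099). Over all 6 omissions the log2 fold change ran from -1.14 to -0.84.

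Elsewhere Ncf4 lay lower or higher without a call. The VavCre Arid1b set had 226, 212 and 276 CPM in floxed 1, 3 and 4 and 217, 209 and 178 CPM in controls (log2 fold change 0.24, edgeR adjusted p 0.442). The MxCre set titled A2 had 258, 218 and 224 CPM in floxed libraries, all below the 388, 278 and 318 CPM of its controls (-0.49, 95% interval -0.86 to -0.12, edgeR adjusted p 0.332). In voom with sample weights that difference was -0.52 and passed (limma adjusted p 0.042). The set titled A1b turned the other way, with 318, 369.6 and 264 CPM in floxed libraries and 212, 279.6 and 216 CPM in controls, which overlapped (0.43, edgeR adjusted p 0.222). Its change differed from that in the VavCre Arid2 set by 1.41 on the log2 scale (95% interval 0.88 to 1.94, edgeR adjusted p 0.0205). The call held in 8 of 12 single-library omissions and was lost when Y-positive status was in the model (1.26, edgeR adjusted p 0.067).

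Rac2, the GTPase, was the member with the narrowest range. VavCre Arid2 libraries had 719, 661 and 828 CPM when floxed, against 1146, 1140.3 and 1025 CPM in controls, with no overlap. Rac2 fell by 0.58 on the log2 scale (SE 0.13, 95% interval -0.86 to -0.31, edgeR adjusted p 0.0383), to 736 ± 85.1 CPM in floxed libraries against 1104 ± 68.5 CPM in controls (SD, n = 3 each). The call was lost without control 1 (-0.55, edgeR adjusted p 0.118), control 2 (-0.56, 0.137), floxed 1 (-0.57, 0.149) or floxed 2 (-0.51, 0.201), when Y-positive status was in the model (-0.53, 0.0673) and with no filter on low counts (-0.56, 0.0914). VavCre Arid1b libraries had 791, 722 and 804 CPM when floxed, all below the 1016, 849 and 1193 CPM of controls. That difference did not pass (-0.40, 95% interval -0.68 to -0.12, edgeR adjusted p 0.0717), and without control 2 it did (-0.52, 0.0392).

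Neither MxCre set gave a call for Rac2. The set titled A2 had 1047, 923 and 974 CPM when floxed, all above the 798, 817 and 821 CPM of controls (log2 fold change 0.27, 95% interval -0.00 to 0.55, edgeR adjusted p 0.477). The set titled A1b had 889, 900.1 and 812 CPM when floxed, inside the control range of 725, 948 and 759 CPM (0.10, edgeR adjusted p 0.736). The Rac2 change in the MxCre set titled A2 differed from that in the VavCre Arid1b set by 0.67 on the log2 scale (95% interval 0.28 to 1.06, edgeR adjusted p 0.0358), but this was not called when Y-positive status was in the model (1.02, edgeR adjusted p 0.13), with no filter (0.66, 0.0867) or without the 3 libraries that stood apart (0.54, 0.0731). It differed from that in the VavCre Arid2 set by 0.86 (interval 0.47 to 1.25, edgeR adjusted p 0.0464, with 0.489% of all genes called in that test), and this was called when Y-positive status was in the model (0.98, edgeR adjusted p 0.0218) but not with no filter (0.82, 0.106). The 19 granulocyte markers measured summed to 16653 to 24337 CPM in floxed and 8226 to 11354 CPM in control libraries of the set titled A2. There Rac2 lay higher but Ncf4 lower when floxed. In the VavCre Arid2 set the sums were 3561 to 13229 CPM in floxed and 12711 to 20096 CPM in control libraries, which overlapped through floxed 3 alone. Of the 19 markers, 2 had a log2 fold change above 0 in that set, and the median was -1.85, against 0.00 for all genes. By edgeR 1 was called lower and 0 higher, beside 1.31% of all genes called. The sums also overlapped in the VavCre Arid1b set (2433 to 6121 CPM in floxed, 3437 to 16414 in control libraries), where Rac2 lay lower. The set titled A1b had overlapping sums too (10621 to 32800 CPM in floxed, 5579 to 18916 in control libraries). None of the 19 was at 0 in any group, and their part in the Rac2 and Ncf4 differences was not tested.

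Across the 24 libraries, Rac2 followed the granulocyte sum with an r of 0.60 and a rho of 0.69 (permutation adjusted p 0.0098 and 0.00125). The r was 0.77 for deviations from set means (permutation adjusted p 0.0006) and 0.68 for deviations from group means, which did not pass (0.112). Cyba and Ncf4 had an r with the same sum of 0.49 and 0.50 (permutation adjusted p 0.0285 each), and within groups neither passed (0.227 each). Their rho, 0.38 and 0.43, did not pass either (permutation adjusted p 0.115 and 0.0778). For deviations from set means Cyba passed (r = 0.55, permutation adjusted p 0.0374) and Ncf4 did not (0.39, 0.145). Ncf1 had an r of 0.44 with the monocyte sum, which did not pass (permutation adjusted p 0.0508), although its rho of 0.60 did (0.00807). Within groups that r was 0.20 (permutation adjusted p 0.473). Rac2 ran against the monocyte sum (r = -0.50, permutation adjusted p 0.0285), though not within groups (-0.13, 0.473).

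Over all 8 groups, Ncf4 (edgeR adjusted p 0.0122) and Rac2 (0.0371) differed among groups, and Cyba (0.13), Cybb (0.214) and Ncf1 (0.446) did not pass, so that 2 of 5 were called where 7.98% of all genes were. The order of group means was broken by spread nearly everywhere. Neighbouring groups in that order overlapped for all of Cybb, Cyba and Ncf1. For Ncf4, the MxCre set titled A2 floxed group (233 ± 21.6 CPM) and the VavCre Arid1b controls (202 ± 20.6) did not overlap, but only just, at a lowest value of 218.0 CPM and a highest of 217.3 CPM, with the VavCre Arid2 floxed group lowest (169 ± 34.8) and the controls of that set highest (333 ± 42.1). For Rac2, the floxed groups of the MxCre sets titled A2 (981 ± 62.5 CPM) and A1b (867 ± 47.9) did not overlap. The VavCre Arid2 floxed group was again lowest (736 ± 85.1) and its controls highest (1104 ± 68.5).

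The mean floxed effect over the 4 sets called none of the 5 by edgeR or DESeq2 (1.72% of all genes called by edgeR), with 3 at an unadjusted p under 0.05. It was 0.87 on the log2 scale for Cybb (edgeR adjusted p 0.295), -0.20 for Ncf4 (0.259), -0.15 for Rac2 (0.246), -0.07 for Cyba (0.819) and 0.16 for Ncf1 (0.578). The controls were also compared, since they differ in Cre line and pIpC. Cybb averaged 551 ± 272 CPM in the 6 MxCre controls and 221 ± 228 CPM in the 6 VavCre controls (SD; log2 difference 1.53, edgeR adjusted p 0.384). Rac2 averaged 811 ± 76.4 CPM in MxCre and 1062 ± 126 CPM in VavCre controls (-0.39, 95% interval -0.58 to -0.19, edgeR adjusted p 0.291). None of the 5 was called, where 0.00709% of all genes were, and DESeq2 called 1. Cre line, pIpC and library preparation cannot be told apart in that comparison.

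The 10 pairs of members were correlated on log2 CPM. Cyba and Ncf4 were the closest pair, with an r of 0.80 and a rho of 0.71 (permutation adjusted p 0.0001 and 0.0014). They kept an r of 0.72 without the 2 libraries farthest from the median, 0.85 for deviations from set means (permutation adjusted p 0.0001) and 0.73 for deviations from group means (0.0129). It was the only pair of the 10 to pass within groups. Cybb ran with Ncf1 (r = 0.57, rho = 0.61, permutation adjusted p 0.0113 for r) and ran against Rac2 (r = -0.57, rho = -0.51, permutation adjusted p 0.0113 for r). Both passed for deviations from set means (r = 0.60 and -0.59, permutation adjusted p 0.0218 each). Neither relation passed within groups (permutation adjusted p 0.2615 and 0.443). Ncf1 and Rac2 had an r of -0.52 (permutation adjusted p 0.0187), which shrank to -0.20 without the 2 farthest libraries. For deviations from set means it was -0.52 (permutation adjusted p 0.0518) and for deviations from group means -0.67 (0.0675), neither of which passed. Cyba and Rac2 had an r of 0.50 (permutation adjusted p 0.0248) that did not pass for deviations from set means (0.0518) or within groups (0.2615). The 2 membrane chains, Cybb and Cyba, had an r of 0.08 (permutation adjusted p 0.716), and Ncf4 and Rac2, both on chromosome 15, one of 0.36 (0.144). The sign of some pairs differed by set. For Ncf4 and Rac2 the r was -0.60 in the VavCre Arid1b set, 0.94 in VavCre Arid2, -0.72 in MxCre titled A2 and 0.83 in MxCre titled A1b. For Cyba and Rac2 it was -0.46, 0.96, -0.47 and 0.57 in the same order. Each of these rests on the 6 libraries of a set and was not tested.

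**Figure D4:**
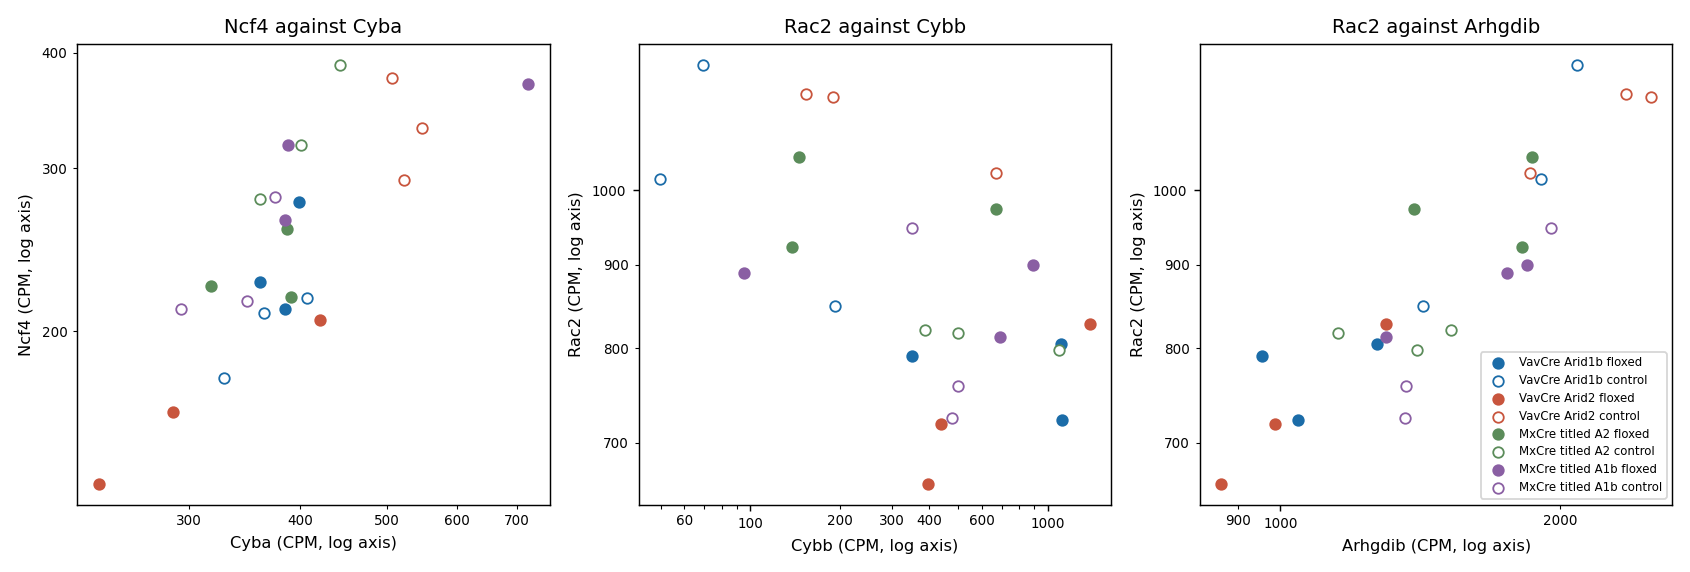
Ncf4 against Cyba, Rac2 against Cybb and Rac2 against Arhgdib in CPM on log axes, 1 point per library (floxed filled, control open, coloured by set). Ncf4 rises with Cyba (r = 0.80) and Rac2 with Arhgdib (r = 0.89), while Rac2 falls with Cybb (r = -0.57).

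Ratios within the complex were compared by their ranges, with no test. Cybb over Cyba, both per kb, was 0.173 to 0.520 in VavCre Arid1b floxed libraries and 0.0218 to 0.0949 in their controls, and 0.272 to 0.589 in VavCre Arid2 floxed libraries and 0.0526 to 0.236 in their controls, with no overlap in either set. It overlapped in the MxCre sets, at 0.0633 to 0.377 in floxed and 0.173 to 0.441 in control libraries of the set titled A2, and at 0.0440 to 0.321 in floxed and 0.168 to 0.290 in control libraries of that titled A1b. Ncf1 over Ncf4, both per kb, was 1.44 to 2.76 in VavCre Arid2 floxed libraries and 0.859 to 1.33 in controls, without overlap, and overlapped in the VavCre Arid1b set, at 1.61 to 2.30 in floxed and 0.937 to 1.92 in control libraries. In the set titled A2 it was 1.33 to 1.88 in floxed and 1.07 to 1.56 in control libraries, and in that titled A1b 1.18 to 1.66 in floxed and 1.04 to 1.86 in control libraries, which also overlapped. In the VavCre sets non-overlapping ranges of single genes were common, at 32.4% of all genes for the Arid1b set and 36.1% for the Arid2 set, so these ranges are descriptive. The share was 15% in the MxCre set titled A2 and 14.1% in that titled A1b.

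Of the partners of the 5 genes, Arhgdib was the only one called in any set (edgeR adjusted p under 0.05). Of 8 partner genes listed, 7 were tested: Rac1, Rap1a and Rap1b (the GTPases found with the membrane core), Hvcn1 (the proton channel that balances the charge), BC017643 (the mouse gene of EROS, the chaperone of the gp91phox and p22phox pair), and Arhgdia and Arhgdib (the inhibitors that hold Rac in the cytosol). Arhgdib, whose product binds Rac GTPases in blood cells, was called lower in both VavCre sets. Its values were 955, 1045 and 1269 CPM in floxed 1, 3 and 4 of the VavCre Arid1b set, against 1908, 1425 and 2085 CPM in controls. There it fell by 0.73 on the log2 scale (edgeR adjusted p 0.0442), a call kept only without control 2 among the 6 single-library omissions. VavCre Arid2 libraries had 987, 864 and 1300.1 CPM when floxed, against 2355, 2506 and 1858 CPM in controls. It fell there by 1.09 (edgeR adjusted p 0.018), a call kept in 2 of 6 omissions, those of control 3 and floxed 3. Neither set overlapped between floxed and control.

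The other 6 partners were not called in any set. Rac1 was at 376 ± 40.1 CPM in floxed and 404 ± 31.6 CPM in control libraries of the VavCre Arid2 set (-0.10, edgeR adjusted p 0.785), where Rac2 fell. BC017643 was at 198 ± 26.3 CPM in floxed and 132 ± 33.2 CPM in control libraries of the VavCre Arid1b set (0.58, edgeR adjusted p 0.116). Over the 7 partners the median log2 fold change was 0.18 in the VavCre Arid1b set and -0.02 in the VavCre Arid2 set, against -0.06 and 0.00 for all genes.

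**Figure D5:**
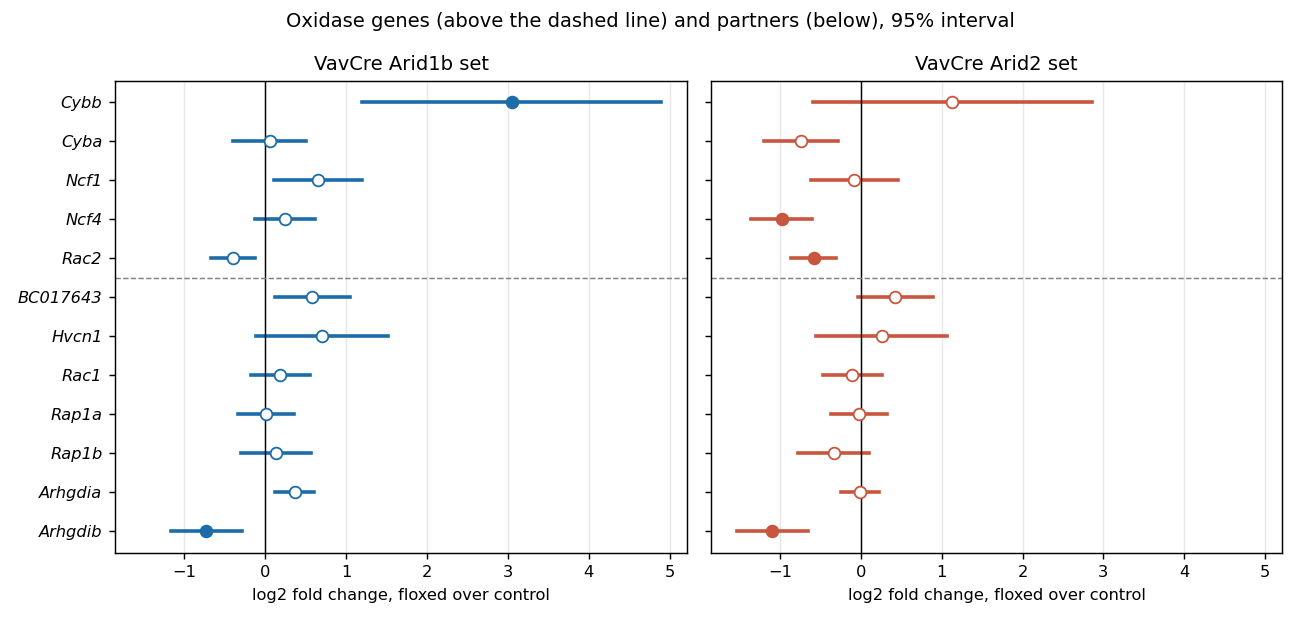
Log2 fold change, floxed over control, of the 5 oxidase genes (above the dashed line) and their tested partners (below it) in both VavCre sets, with 95% intervals from edgeR; filled points have an adjusted p under 0.05. Arhgdib is the partner that passed, at -0.73 in the VavCre Arid1b set and -1.09 in the VavCre Arid2 set.

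Genes around the oxidase were read from lists of its regulators and of the systems that feed and contain it. The counts for the VavCre Arid1b set stand beside 6.57% of all genes called there. In that set, 1 of 10 other small GTPases was called higher and 1 lower. Rhoq rose to 66.9 ± 10.9 CPM in floxed libraries against 30.4 ± 2.72 CPM in controls (log2 fold change 1.14, edgeR adjusted p 0.0105), and Rhou fell to 4.92 ± 2.43 CPM against 22.2 ± 6.23 CPM (-2.18, 0.0303). Of 16 activating kinases and lipid enzymes, 2 were called lower and none higher. Prkcb, a protein kinase C that phosphorylates p47phox, fell to 97.6 ± 39.3 CPM in floxed libraries against 350.0 ± 57.2 CPM in controls (-1.84, edgeR adjusted p 0.0199). Pla2g4a, the phospholipase that releases arachidonic acid, fell to 11.9 ± 2.53 CPM against 48.4 ± 10.1 CPM (-2.03, 0.00777).

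Transcription factors known at oxidase genes gave 2 of 16 higher and 1 lower in the VavCre Arid1b set. Cebpa rose to 205.5 ± 30.5 CPM in floxed libraries against 102 ± 28.2 CPM in controls (log2 fold change 1.01, edgeR adjusted p 0.0175), and Nfkb1 to 709 ± 106 CPM against 289 ± 113 CPM (1.29, 0.0401). Cebpe, of late granulocytic maturation, fell to 42.8 ± 9.14 CPM against 158 ± 78.6 CPM (-1.89, 0.0261). Irf8, a factor of the monocyte lineage, was at 1130 ± 202 CPM in floxed and 174 ± 149 CPM in control libraries and did not pass (2.70, edgeR adjusted p 0.0677). Spi1, the gene of the ETS factor PU.1, was at 352 ± 51.4 CPM in floxed and 366 ± 12.7 CPM in control libraries (-0.06, edgeR adjusted p 0.876).

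Among 22 genes that handle reactive oxygen, 2 were called lower in the same set. Gsr, glutathione reductase, fell to 632 ± 132 CPM in floxed libraries against 2092 ± 860 CPM in controls (log2 fold change -1.73, edgeR adjusted p 0.00963), and Gclm, of glutathione synthesis, to 19.2 ± 4.56 CPM against 34.2 ± 8.26 CPM (-0.83, 0.0235). Of 5 tested genes of NADPH supply, 1 was called, Tkt, the transketolase of the pentose phosphate pathway, which fell to 775 ± 137 CPM against 1263 ± 72.3 CPM (-0.71, edgeR adjusted p 0.0125). None of 14 phagocytic and priming receptors, 9 Rac exchange factors or 2 other NOX family genes was called by edgeR. In the receptors Tlr2 had the smallest p (1.70, edgeR adjusted p 0.0987), and among exchange factors Dock5 (-1.34, 0.0523). With Y-positive status in the model, a term fitted from groups of other sets, 1 of the 11 pathway genes called in this set was still called, Tkt. All 11 lost the call without floxed 3, and 10 of them, all but Pla2g4a, without control 1. Over the 6 single-library omissions Pla2g4a kept it in 5, Rhoq, Gsr and Tkt in 4, Prkcb, Cebpa and Gclm in 3, Cebpe in 2, and Rhou, Nfkb1 and Arhgdib in 1, with edgeR adjusted p up to 0.178.

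The VavCre Arid2 set had fewer calls around the oxidase. Nqo1, a quinone reductase, was the only one of 22 genes handling reactive oxygen to be called, and was near 0 when floxed, at 0.123 ± 0.0618 CPM in floxed against 1.59 ± 0.789 CPM in control libraries (log2 fold change -3.64, edgeR adjusted p 0.00989; 1.31% of all genes called). The Nqo1 call was lost without floxed 1 (edgeR adjusted p 0.0593). No regulator, receptor, transcription factor or NADPH supply gene of the lists was called by edgeR. The smallest p of the transcription factors were those of Hoxa10 (-3.58, edgeR adjusted p 0.0507) and Hoxa9 (-2.36, 0.0534), of the kinases that of Prkcb (-1.67, 0.059), of the small GTPases that of Rhog (-0.49, 0.0826), and of the receptors those of Fcgr4 (-1.81, 0.0915) and the integrin chain Itgb2 (-0.86, 0.105). The MxCre sets had no called gene in any pathway list. The smallest values there were those of Pak1, a kinase that phosphorylates p47phox, in the set titled A1b (0.92, edgeR adjusted p 0.0591), and Prdx6, a peroxiredoxin that binds the oxidase (0.88, 0.0667). In the set titled A2, the protein kinase C gene Prkca had the smallest p (3.24, edgeR adjusted p 0.146). Averaged over the 4 sets, Pla2g4a (-0.83, edgeR adjusted p 0.0275) and Nqo1 (-1.26, 0.0275) were called lower, where 1.72% of all genes were called. These means do not stand for an equal change in every set. The Nqo1 change in the MxCre sets titled A2 and A1b minus that in the VavCre Arid2 set was 3.86 (edgeR adjusted p 0.0438, 0.489% of all genes called) and 3.67 (0.0317, 1.5%). For Pla2g4a, MxCre titled A2 minus VavCre Arid1b was 2.03 (edgeR adjusted p 0.0257, 7.35%). Without the 3 libraries that stood apart neither mean passed (-0.76, edgeR adjusted p 0.08, and -1.18, 0.0793). Of 24 single-library omissions the Pla2g4a call for the mean held in 16 (edgeR adjusted p up to 0.0606) and that of Nqo1 in 18 (up to 0.0668). Both were lost without control 1, floxed 1 or floxed 3 of VavCre Arid1b, control 2 of VavCre Arid2, or floxed 2 of MxCre titled A1b. Pla2g4a was also lost without floxed 2 of VavCre Arid2, floxed 3 of MxCre titled A2 or control 2 of MxCre titled A1b, and Nqo1 without control 1 of MxCre titled A2.

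Genes whose log2 CPM ran most like each member over the 24 libraries were taken from 11652 tested genes with a mean of at least 2 CPM. For Cybb they were Aim1 (r = 0.97), Cx3cr1, the fractalkine receptor of monocytes (0.96), and Ahnak (0.95). For Cyba they were Rhog, a small GTPase (0.90), Arpc4, of the Arp2/3 complex (0.87), and Pfn1, profilin (0.86). Those of Ncf1 were Zdhhc18 (0.88), Mafg (0.84) and Rhbdf2 (0.82), and those of Ncf4 were Aldh3b1 (0.83), 5031425F14Rik (0.82) and 2010005H15Rik (0.81). Rac2 ran closest to Ppp1r42 (0.90), Arhgdib (0.89) and Igf2r (0.88). No member was among the 3 nearest of another, since members were left out of the ranking. By Spearman correlation 1 of 3 names was shared for Cybb, 2 for Cyba, 0 for Ncf1, 2 for Ncf4 and 1 for Rac2. By deviations from group means 1 of 3 was shared for Cybb, Cyba and Ncf1 and 0 for Ncf4 and Rac2, and the r of 5031425F14Rik with Ncf4 was 0.38, so these names depend on the measure.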

How the data were processed

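RNA was measured in 24 libraries. Per the labels' protocols, polyadenylated RNA from TRIzol extracts went into directional libraries. STAR and the build mm10 are named, per the submitters' processing notes. No source used here gives the counter, annotation, strand setting or versions. The authors deposited whole-number counts per gene symbol, 1 column per library, matched to titles, with 0 columns unused.

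The members, gene lists, tests and alternatives were chosen with earlier results of these data known. Counts were analysed with edgeR 4.0.16 in R 4.3.3: filterByExpr (minimum count 10, total 15) kept 14099 genes, and a robust quasi-likelihood model with trimmed mean of M values scaling was fitted to all 24 libraries with 8 group means. Contrasts were floxed minus control in each set, their mean, the 6 differences between sets, MxCre minus VavCre controls, and any difference. Adjusted p-values are Benjamini-Hochberg values over all 14099 genes. No batch is labelled. Correlations used log2 CPM with a prior count of 2 and two-sided permutation tests (100000 resamples, within sets or groups where stated), adjusted over 10 relations. Kilobase values use GENCODE M21 exon lengths.

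The text names the 5 members, up to 4 called genes of each pathway list (or up to 2 with the smallest p) and the 3 genes most like each member. Other genes named for context (Irf8, Spi1, and uncalled partners) were chosen after their values were seen. Totals of 12069153 to 38315410 counts leave counting error small beside the biological spread (common coefficient of variation 0.4). Replicates of every group differed beyond sampling noise. The model was tested on simulated data. Alternatives were RLE scaling, no filter, DESeq2 1.42.0, limma 3.58.1 voom with sample weights, a replicate block, a term for Y-positive libraries, only the libraries of a set, leaving out 3 libraries that stood apart, and leaving out each library. The 3 libraries that stood apart were picked by name, without a computed criterion. A further partner gene of the oxidase is not reported here.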

Additional observations from a re-analysis of the deposited data

Results flagged for a closer look

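Of the differences between sets, 5 passed the test of the difference itself, by edgeR's quasi-likelihood test over all 14099 genes. For Cybb, the floxed change in the MxCre set titled A2 minus that in the VavCre Arid1b set was -4.10 on the log2 scale (edgeR adjusted p 0.0438). Its size ran from -5.28 to -3.53 over 12 single-library omissions, and the call held in 4 of them, those of control 2 and floxed 1 of the VavCre Arid1b set and control 3 and floxed 3 of the MxCre set titled A2 (edgeR adjusted p 0.0129 to 0.117 over the 12). With a term for Y-positive libraries it was -1.61 (edgeR adjusted p 0.775), but no group of these sets was of mixed Y status, so that term rests on other sets.

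For Rac2, the same difference was 0.67 (edgeR adjusted p 0.0358), and it ran from 0.51 to 0.79 over 12 omissions, with the call held without control 2 of the VavCre Arid1b set or floxed 3 of the MxCre set titled A2 (edgeR adjusted p 0.022 to 0.113). With the Y-positive term it was 1.02 (edgeR adjusted p 0.13). The Rac2 change in the MxCre set titled A2 minus that in the VavCre Arid2 set was 0.86 (edgeR adjusted p 0.0464). It held without control 3 or floxed 3 of the VavCre Arid2 set or floxed 3 of the MxCre set titled A2 (0.78 to 0.95 over 12 omissions, edgeR adjusted p 0.0355 to 0.15). With the Y-positive term it was 0.98 (edgeR adjusted p 0.0218).

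For Cyba, the change in the MxCre set titled A1b minus that in the VavCre Arid2 set was 1.29 (edgeR adjusted p 0.0428). It held without floxed 3 of the VavCre Arid2 set or without control 2, floxed 1 or floxed 3 of the other set (0.91 to 1.55, edgeR adjusted p 0.0142 to 0.134). With the Y-positive term it was 1.01 (edgeR adjusted p 0.148). For Ncf4, the same difference was 1.41 (edgeR adjusted p 0.0205). It was lost without floxed 1 or floxed 2 of the VavCre Arid2 set or control 1 or control 3 of the other (1.26 to 1.57, edgeR adjusted p 0.00934 to 0.0709). With the Y-positive term it was 1.26 (edgeR adjusted p 0.067).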

How the results depend on the processing

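The directions of the 3 called differences, Cybb in the VavCre Arid1b set and Ncf4 and Rac2 in the VavCre Arid2 set, were the same under every alternative run, but their calls were not. Of the 5 members, 1 was called in the VavCre Arid1b set, and 0 were with no filter on low counts, with a term for Y-positive libraries or without the 3 libraries that stood apart (control 3 for VavCre Arid1b, floxed 3 for MxCre titled A2, floxed 2 for MxCre titled A1b), 2 by DESeq2, 2 by voom, and 0 to 2 over the 6 omissions of 1 library. In the VavCre Arid2 set 2 were called, and 1 with no filter, 1 with the Y-positive term, up to 3 in other alternatives and 0 to 3 over the omissions. Cyba was called lower there in 3 of the 8 alternatives other than omissions. In the MxCre set titled A2 voom called 1. The genes called over the whole table were 926 in the VavCre Arid1b set, 1815 by DESeq2, 4189 by voom, 101 with the Y-positive term and 62 to 734 over the omissions. The VavCre Arid2 set had 185, and 103 with no filter, 1095 by DESeq2, 4679 by voom, 104 with the Y-positive term, 1030 with the 6 libraries of the set, 1144 without the 3 libraries and 15 to 227 over the omissions. The MxCre set titled A2 had 4, and 196 by DESeq2, 1202 by voom, 0 with the Y-positive term, 33 without the 3 libraries and 0 to 18 over the omissions. The MxCre set titled A1b had 1, and 0 with no filter, 478 by DESeq2, 12 by voom, 2 with the Y-positive term, 0 with the 6 libraries, 8 without the 3 libraries and 0 to 1535 over the omissions. Over the omissions the genes called ran from 80 to 941 for the mean effect, 1 to 3 between MxCre and VavCre controls and 400 to 2775 among the 8 groups. The cause of these shifts was not tested. Members called for the differences between sets were, for VavCre Arid2 minus VavCre Arid1b, 0, and 1 by DESeq2 and 3 by voom; for MxCre titled A2 minus VavCre Arid1b, 2, and 0 with no filter, 4 by voom, 0 with the Y-positive term, 1 without the 3 libraries and 0 to 2 over the omissions; for MxCre titled A1b minus VavCre Arid1b, 0, and 1 by voom; for MxCre titled A2 minus VavCre Arid2, 1, and 0 with no filter, 3 by voom and 0 to 1 over the omissions; for MxCre titled A1b minus VavCre Arid2, 2, and 1 with no filter, 0 with the Y-positive term and 0 to 3 over the omissions; and for MxCre titled A1b minus MxCre titled A2, 0, and 1 by DESeq2 and 0 to 1 over the omissions. Between MxCre and VavCre controls DESeq2 called 1 and voom 3. Among the 8 groups 2 were called, and 1 with no filter, 4 by DESeq2, 5 by voom and 1 to 2 over the omissions. Signs turned only in log2 fold changes that were not called: Ncf1 in the VavCre Arid2 set (0.10 by voom, -0.29 to 0.21 over the omissions), Cybb in the MxCre set titled A1b (-0.14 by voom, -0.55 with the Y-positive term, -0.16 without the 3 libraries, -0.18 to 0.84 over the omissions), and, with the Y-positive term, Cyba (-0.38) and Ncf4 (-0.030) in the VavCre Arid1b set and Cybb (0.19) and Cyba (0.30) in the MxCre set titled A2. The r of Cyba and Ncf1 was -0.00083 within groups. The replicate numbers did not pair the samples: deviations of same-numbered floxed and control libraries correlated over 0.1 in 2 of 11 pairs (-0.22 to 0.26). With the replicate number as a block, 0 members and 1 gene were called in the VavCre Arid1b set, 0 members and 3 genes in the VavCre Arid2 set, 1 gene in the MxCre set titled A2, and 0, 0 and 1 members for the differences of MxCre titled A2 from VavCre Arid1b and from VavCre Arid2 and of MxCre titled A1b from VavCre Arid2. Cybb in the MxCre set titled A1b was at -0.082 with the block. The block gave 3.41 for Cybb with VavCre Arid1b (edgeR adjusted p 0.201) and, with VavCre Arid2, -0.99 for Ncf4 (0.0682) and -0.59 for Rac2 (0.173), and neither Pla2g4a (0.171) nor Nqo1 (0.169) passed for the mean effect. Depth limits none of the members, the lowest of which had 49.7 CPM.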
